A study of Sus scrofa with 12 samples.

Results

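LPC + dantrolene was compared with LPC in porcine aortic valve interstitial cells (paVICs), the fibroblast-like cells that populate the aortic valve leaflet. The comparison used 6 of the 12 libraries, chosen by their labels: paVICs given 60 μM dantrolene in DMSO together with 10 μM LPC in ethanol (n = 3), and paVICs given 10 μM LPC with 0.6% DMSO (n = 3). The other 6 libraries, vehicle control (0.6% DMSO with 0.1% ethanol, n = 3) and 60 μM dantrolene with 0.1% ethanol (n = 3), served to define which genes LPC had raised and to give the effect of dantrolene without LPC. All cells were wild type, and all were treated for 24 h in low-serum medium. Valves from several hearts were pooled for each isolation, so the animals behind a library cannot be told apart. Each of the 3 replicate numbers was taken as 1 isolation, cultured on its own day.

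LPC (lysophosphatidylcholine) is a lipid of oxidized lipoproteins that drives calcific nodule formation in cultured valve cells, and the study asked what blocking calcium release does to that response. Dantrolene is a muscle relaxant that inhibits ryanodine receptors, the channels that release calcium from the endoplasmic reticulum, of which *RYR3* encodes a member. The aryl hydrocarbon receptor is a transcription factor that is activated by aromatic compounds, and its classical targets are the cytochrome P450 genes *CYP1A1* and *CYP1B1*.

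Levels are given as TMM-scaled CPM (each gene's counts scaled to a common library size), which compare a gene between libraries but not genes of different length, and differences as log2 fold changes with their standard errors. A gene was called at an adjusted p under 0.05 in edgeR's quasi-likelihood test over the 13216 genes tested. Unlike the other levels, the summed levels of markers are CPM on total counts, without TMM factors. The 10 fibroblast and valve interstitial markers were all tested, with none called, and their summed level was 46202 to 62306 CPM with LPC and 58236 to 70595 CPM with LPC + dantrolene. The summed level of 10 endothelial markers was 137 to 171 CPM and 107 to 148 CPM, and that of 6 smooth muscle markers was 2159 to 3497 CPM and 1009 to 2477 CPM, in the same order. Of 8 leukocyte markers, 6 had a row in the table and summed to 13.6 to 26.3 CPM and 21.4 to 24.9 CPM, with *CSF1R* and *TYROBP* at 0 in the LPC libraries. The 4 cardiomyocyte markers with a row summed to at most 0.942 CPM, with *MYL2* at 0 in both groups, and *TNNT2*, *PTPRC*, and *CD163* had no row. No tested marker of any list was called, and the part of other cells in the results was not tested. In bulk libraries fewer cells of a type and less RNA per cell cannot be told apart. Between 16489684 and 21062624 counts per library fell on genes in these 6 libraries, and 3 counts, taken as the limit of detection with counting error alone in view, corresponded to at most 0.186 CPM.

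Replicate 2 of LPC + dantrolene stood apart from the other libraries. Over the 1129 genes called higher with LPC than vehicle, its median level was 0.03 above the vehicle mean on the log2 scale, computed with 0.5 CPM added. The same median was 1.67 in replicate 1 and 1.72 in replicate 3 of LPC + dantrolene, and 1.63, 1.63, and 1.40 in the LPC libraries. In that 1 library 790 of the 1129 genes (70.0%) lay no higher than the highest vehicle library, against 13 (1.15%) and 23 (2.04%) in replicates 1 and 3. It also had the lowest TMM factor (0.863) and the fewest genes with a count (13371) of the 12 libraries. Values without it are given beside the results that it moved most.

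**Figure D1:**
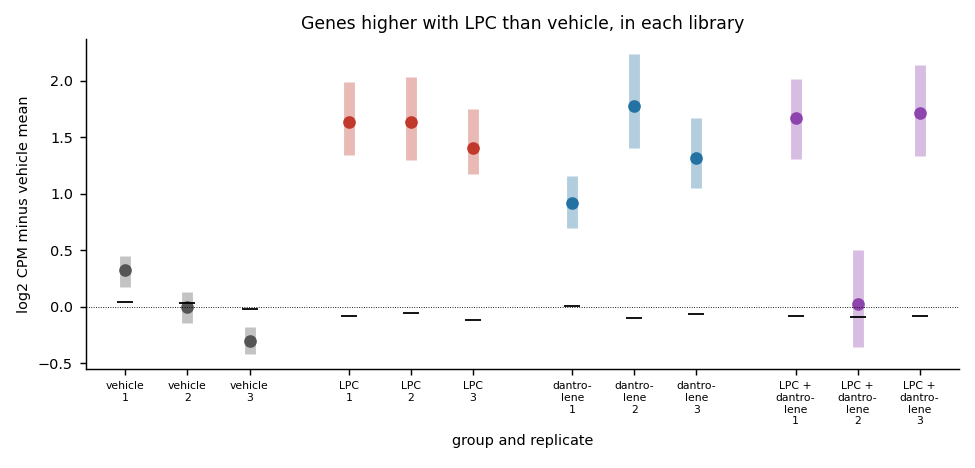
Level of the 1129 genes that were higher with LPC than vehicle, in each of the 12 libraries, as log2 CPM (0.5 CPM added) minus the mean of the vehicle libraries. Circles are medians over the genes, bars span the quartiles, and black dashes give the median of all 13216 genes tested. Replicates 1 and 3 of LPC + dantrolene lay at 1.67 and 1.72, in the range of the LPC libraries or above it, and replicate 2 lay at 0.03.

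Few genes were called between LPC + dantrolene and LPC. Compared with LPC, 29 genes (0.219% of those tested) were higher with LPC + dantrolene and 38 (0.288%) were lower at an adjusted p under 0.05 in edgeR, while 442 and 432 passed an unadjusted p under 0.05. The median log2 fold change of all genes tested was 0.02. The called genes that were higher had log2 fold changes between 1.47 and 7.49, and those that were lower fell by at least 1.31 on the log2 scale. The higher genes made up 43.3% of the calls, but 71.4% with libraries scaled by total counts alone. All 3 libraries of each group lay outside the range of the other group for 25 of the 29 higher and 35 of the 38 lower genes, against 4.86% and 4.93% of all genes tested. In the 3 pairs of libraries from the same isolation, 27 of the 29 were higher in every pair and 38 of the 38 lower in every pair. The genes had been called on these same libraries, which favors such separation, so these counts describe the calls and are not independent evidence for them. The counts of higher and lower genes were 12 and 19, 3 and 6, and 16 and 11 without LPC replicates 1, 2, and 3. They were 38 and 82, 53 and 87, and 15 and 11 without the LPC + dantrolene replicates in the same order, 19 and 19 without vehicle replicate 1, and 22 and 22 without vehicle replicate 2. Of the called genes, 23 of those higher and 35 of those lower had a gene symbol.

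**Figure D2:**
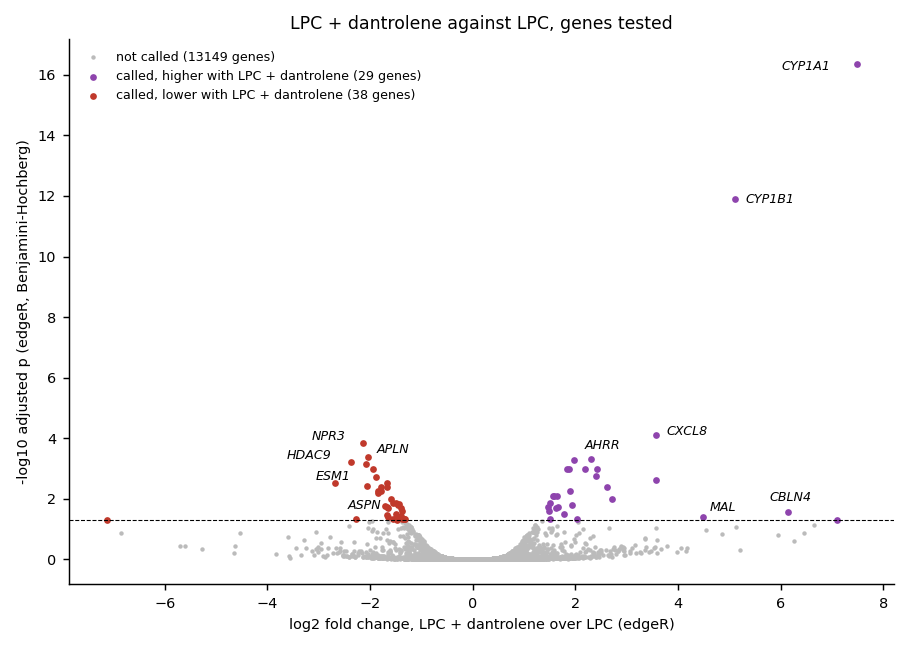
Log2 fold change of LPC + dantrolene over LPC (x axis) and −log10 adjusted p (y axis) for the 13216 genes tested in edgeR. Each point is a gene, and the dashed line marks an adjusted p of 0.05. *CYP1A1* and *CYP1B1* lie far above the other called genes, and the lower genes outnumber the higher ones, 38 to 29.

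*CYP1A1* and *CYP1B1*, the genes with the smallest p-values, were targets of the aryl hydrocarbon receptor. Of 12 tested members of a list of its partners and targets, 4 were upregulated with LPC + dantrolene compared with LPC, none was lower, and the list's median log2 fold change was 0.79. *CYP1A1*, which oxidizes aromatic compounds, was at 0.615, 0, and 0 CPM in LPC replicates 1 to 3 and at 43.9, 22.6, and 48.8 CPM in LPC + dantrolene replicates 1 to 3. The groups did not overlap, and the log2 fold change was 7.49 ± 0.59 (SE, edgeR adjusted p = 4.45e-17). *CYP1B1*, a related P450 that also metabolizes steroids and fatty acids, rose from 60.1, 29.8, and 20.6 CPM to 945, 385, and 2493 CPM, a log2 fold change of 5.11 ± 0.50 (edgeR adjusted p = 1.27e-12). The lowest LPC + dantrolene library was the replicate that stood apart, and it still lay above every LPC library.

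The receptor's own repressor *AHRR* was at 31.1, 13.2, and 20.1 CPM with LPC and at 83.1, 75, and 94.4 CPM with LPC + dantrolene, with a log2 fold change of 1.97 ± 0.35 (edgeR adjusted p = 0.000528). *TIPARP*, an ADP-ribosyltransferase that also restrains the receptor, was at 33.1, 25.5, and 23.4 CPM and at 92.1, 42.1, and 109 CPM (log2 1.57 ± 0.35, edgeR adjusted p = 0.00826). For neither gene did the groups overlap. The quinone reductase *NQO1*, a target shared with NRF2, was at 80.9 ± 16.7 CPM with LPC and 187 ± 79.3 CPM with LPC + dantrolene (mean ± SD, n = 3), and its log2 fold change of 1.21 ± 0.33 did not pass the test (edgeR adjusted p = 0.0722), though it did in DESeq2 (adjusted p = 0.0416). The receptor itself, *AHR*, was raised by LPC and had a log2 fold change of −0.33 ± 0.34 here. Without the replicate that stood apart, 4 members of the list were again called higher and the median was 0.65.

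**Figure D3:**
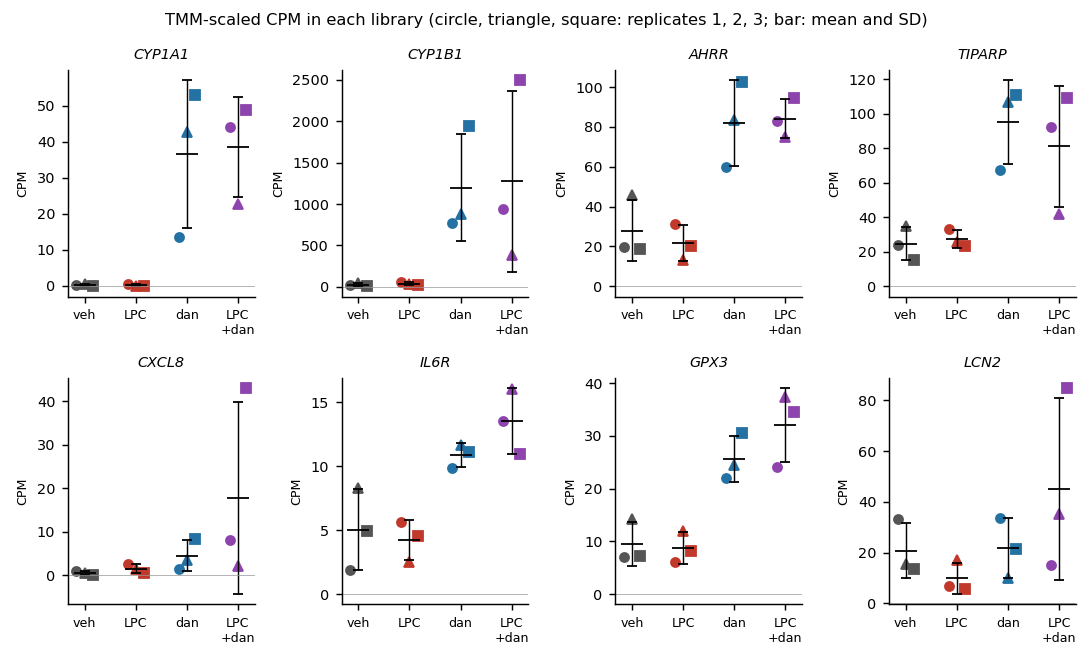
TMM-scaled CPM (y axis, linear) of 8 genes called higher with LPC + dantrolene than LPC, in vehicle (veh), LPC, dantrolene (dan), and LPC + dantrolene libraries. Circles, triangles, and squares are replicates 1, 2, and 3, and black bars are the mean ± SD (n = 3). *CYP1A1*, *CYP1B1*, *AHRR*, and *TIPARP* were high in both groups given dantrolene, and *CXCL8* and *LCN2* spread widely within LPC + dantrolene.

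Of 36 tested genes of cytokine, NF-κB, and JAK-STAT signaling, 3 rose (*CXCL8*, *IL6R*, and *BCL3*), none fell, and the median was 0.28. *CXCL8*, the neutrophil chemokine interleukin-8, was at 2.56, 1.47, and 0.463 CPM with LPC and at 8.10, 2.11, and 43.0 CPM with LPC + dantrolene (log2 3.56 ± 0.57, edgeR adjusted p = 7.82e-05). The groups overlapped, since replicate 2 of LPC + dantrolene lay below replicate 1 of LPC. Its call ended without LPC + dantrolene replicate 3 or without LPC replicate 2, and the edgeR adjusted p reached 0.308.

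*IL6R*, the interleukin-6 receptor, was at 5.64, 2.50, and 4.58 CPM with LPC and at 13.6, 16.1, and 10.9 CPM with LPC + dantrolene (log2 1.67 ± 0.39, edgeR adjusted p = 0.0183). *BCL3*, a nuclear member of the IκB family, was at 10.4 ± 4.26 CPM and 28.8 ± 5.12 CPM (log2 1.47 ± 0.35, edgeR adjusted p = 0.0183). Neither gene's groups overlapped. Outside the list, the iron-binding acute-phase protein *LCN2* was at 6.92, 16.9, and 5.66 CPM with LPC and at 15.3, 35.3, and 84.7 CPM with LPC + dantrolene (log2 2.20 ± 0.42, edgeR adjusted p = 0.00102), and here replicate 1 of LPC + dantrolene lay within the LPC range. The hormone thrombopoietin (*THPO*, log2 1.77 ± 0.44) and the stress-induced cytokine *GDF15* (log2 1.48 ± 0.36) also rose, with edgeR adjusted p of 0.0317 and 0.0243. *PTGS2*, the inducible cyclooxygenase, had a log2 fold change of 1.10 and did not pass the test. It passed without the replicate that stood apart, as did *CXCL2*, and 5 genes of the list were then called higher and 1 lower.

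Genes of oxidant and metal defense gave 1 called gene in each direction among 28 tested NRF2 targets and antioxidant enzymes, with a median of 0.28, and of 0.15 without the replicate that stood apart. *GPX3*, the secreted glutathione peroxidase, was at 6.15, 12, and 8.13 CPM with LPC and at 24.1, 37.5, and 34.5 CPM with LPC + dantrolene. The groups did not overlap, and the log2 fold change was 1.87 ± 0.35 (edgeR adjusted p = 0.00102). *TXNIP*, which binds and inhibits thioredoxin and limits glucose uptake, was at 102, 176, and 259 CPM and at 62.6, 97.3, and 10.5 CPM (log2 −1.66 ± 0.39, edgeR adjusted p = 0.0202). The metallothionein *MT1X* rose from 1.38 ± 1.07 CPM to 7.39 ± 2.33 CPM (log2 2.41 ± 0.47, edgeR adjusted p = 0.00174), but metallothionein genes are alike in sequence and its reads may belong in part to another member.

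Other genes called higher belonged to none of these lists. *PLEKHA6*, an adaptor of cell junctions, was at 11.3 ± 3.02 CPM with LPC and 40.6 ± 16.4 CPM with LPC + dantrolene (log2 1.84 ± 0.35, edgeR adjusted p = 0.00102). *TENM4*, a teneurin adhesion receptor, was at 1.59, 3.09, and 2.78 CPM and at 6.94, 13.8, and 19.3 CPM (log2 2.42 ± 0.45, edgeR adjusted p = 0.00101). *SYBU*, which links cargo to kinesin, was at 0.512 ± 0.418 CPM and 6.10 ± 4.62 CPM (log2 3.57 ± 0.71, edgeR adjusted p = 0.00233). In all of them each LPC + dantrolene library lay above each LPC library. The desmosomal linker *PPL* (log2 1.90 ± 0.41), the endocytic GTPase *DNM1* (1.58 ± 0.35), the kinesin *KIF12* (1.65 ± 0.36), and *CA12*, a carbonic anhydrase of the HIF-1 list (1.93 ± 0.45), were also called higher, with edgeR adjusted p between 0.00548 and 0.0159. *CBLN4* was called (edgeR adjusted p = 0.0267) on 88, 0, and 8 counts with LPC + dantrolene against 0, 0, and 1 with LPC, so that a single library held most of them.

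Of 21 tested vasoactive peptides and receptors, 2 were downregulated, none was higher, and the median was −0.13. Without the replicate that stood apart, 3 were called lower and 1 higher, and the median was −0.23. *APLN*, the vasodilator peptide apelin, was at 31.9, 30.6, and 18.6 CPM with LPC and at 7.73, 4.35, and 7.57 CPM with LPC + dantrolene. The groups were far apart, and the log2 fold change was −2.04 ± 0.36 (edgeR adjusted p = 0.000401). The other was *NPR3*, the clearance receptor for natriuretic peptides, which is described with the genes that LPC had raised. The angiotensin II receptor *AGTR1* was at 13.1, 16.9, and 20.9 CPM and at 10.2, 4.04, and 6.12 CPM. Its groups did not overlap, but its log2 fold change of −1.32 ± 0.35 did not pass the test (edgeR adjusted p = 0.0642), though it did in DESeq2 (adjusted p = 0.0321).

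Secreted factors outside the lists that fell included *GDF6*, a bone morphogenetic protein of joints and cartilage, at 27.6, 18.7, and 42.2 CPM with LPC and 13.0, 8.57, and 4.11 CPM with LPC + dantrolene (log2 −1.78 ± 0.37, edgeR adjusted p = 0.00408), *PDGFD*, a platelet-derived growth factor (log2 −1.78 ± 0.38, adjusted p = 0.00542), and *INHBA*, a subunit of activin (log2 −1.43 ± 0.33, adjusted p = 0.0152). None of the 3 had overlapping groups. *TNFRSF11B*, the decoy receptor osteoprotegerin that blocks osteoclast formation, fell from 13.3 ± 5.82 CPM to 3.69 ± 2.18 CPM (log2 −1.85 ± 0.40, edgeR adjusted p = 0.00619). With *HDAC9* it made up the 2 genes called lower among 18 tested osteogenic and mineralization regulators, of which none was called higher, at a median of −0.22. Without the replicate that stood apart, 3 were called lower, with the calcification inhibitor *MGP* added (edgeR adjusted p = 0.00422), and the median was −0.62. *HDAC9*, a class IIa histone deacetylase, was at 7.48, 10.5, and 17.8 CPM with LPC and at 3.95, 1.30, and 1.65 CPM with LPC + dantrolene (log2 −2.37 ± 0.43, edgeR adjusted p = 0.000623). The bone transcription factor *RUNX2* was at 27.2 ± 8.26 CPM and 45.8 ± 12.1 CPM and the cartilage factor *SOX9* at 26.5 ± 3.31 CPM and 32.7 ± 6.90 CPM, and neither passed the test (log2 0.75 ± 0.33 and 0.30 ± 0.34).

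Genes of contraction and of the sarcomere gave a small set. Of 23 tested contractile and actin genes only *SORBS2* passed the test, against 0.288% of all genes tested called lower. A log2 fold change below 0 was found in 21 of the 23, against 48.4% of all genes tested, and the median was −0.36. *SORBS2*, an adaptor of actin fibers and focal adhesions, was at 28.1, 21.3, and 45.8 CPM with LPC and at 13.6, 7.02, and 4.06 CPM with LPC + dantrolene (log2 −1.95 ± 0.37, edgeR adjusted p = 0.00106). *ACTA2*, the smooth muscle actin that marks myofibroblasts, was at 10236, 13404, and 17412 CPM and at 8982, 23558, and 6248 CPM, so that its LPC + dantrolene libraries lay on both sides of the LPC range (log2 −0.08 ± 0.34, edgeR adjusted p = 0.991). The replicate that stood apart held the highest *ACTA2* level of the 12 libraries. Without it the list's median was −0.72 and 1 gene was again called lower.

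Outside that list, the skeletal actin *ACTA1* (log2 −1.71 ± 0.40), the sarcomere protein *MYOM1* (−1.66 ± 0.42), and *ANKRD1*, a stretch- and YAP-responsive cofactor (−1.84 ± 0.39), were downregulated with edgeR adjusted p of 0.0170, 0.0348, and 0.00531. *ACTA1* was at 171, 219, and 466 CPM with LPC and at 63.4, 180, and 17.8 CPM with LPC + dantrolene, with overlapping groups, and actin genes share so much sequence that its reads may belong in part to another actin.

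Of 27 tested HIF-1 target genes, 3 were downregulated (*APLN*, *ESM1*, and *P4HA1*) and 1 was upregulated (*CA12*), against 0.288% and 0.219% of all genes tested. A log2 fold change below 0 was found in 22 of the 27, against 48.4% of all genes tested, with a median of −0.57. In 11 of the 27 all LPC + dantrolene libraries lay below all LPC libraries, and in 1 above, against 4.93% and 4.86% of all genes tested. *P4HA1*, a prolyl hydroxylase of collagen, was at 451, 632, and 511 CPM and at 261, 97.8, and 283 CPM (log2 −1.31 ± 0.34, edgeR adjusted p = 0.0464), and its call ended without the replicate that stood apart (log2 −0.98, edgeR adjusted p = 0.118). Without that replicate the HIF-1 list again had 3 genes called lower, with *BNIP3* in place of *P4HA1*, and 1 higher, at a median of −0.71. Among 17 tested glycolysis enzymes and transporters, *SLC16A3*, the lactate exporter MCT4, was the 1 gene called, at 140, 267, and 105 CPM with LPC and 41.8, 62.9, and 56.1 CPM with LPC + dantrolene (log2 −1.67 ± 0.34, edgeR adjusted p = 0.00310). The list's median was −0.63. Hexokinase 2 (*HK2*, −1.07), *PFKFB3* (−1.01), and lactate dehydrogenase A (*LDHA*, −0.88) did not pass the test. Without the replicate that stood apart, 5 glycolysis genes were called lower, among them *PFKFB3* and *LDHA*, and the median was −0.90. The fructose transporter *SLC2A5* fell from 57.5, 63.6, and 67.8 CPM to 19.3, 35.6, and 17.5 CPM (log2 −1.39 ± 0.34, edgeR adjusted p = 0.0248).

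The remaining lists held few called genes. Of 36 tested TGF-β targets and matrix genes, 2 fell, none rose, and the median was −0.26, with *COL11A1*, a fibrillar collagen of cartilage, at 166 ± 77.4 CPM with LPC and 64.0 ± 17.0 CPM with LPC + dantrolene (log2 −1.38 ± 0.36, edgeR adjusted p = 0.0464). Without the replicate that stood apart, 4 fell, *CCN2* and *TGFB3* among them, and the median was −0.59. Of 13 retinoid genes, *DHRS3*, which reduces retinal to retinol, fell from 65.3, 97.4, and 129 CPM to 30.0, 62.9, and 21.9 CPM (log2 −1.35 ± 0.35, edgeR adjusted p = 0.0450), and none rose. None of 20 PPAR and fatty acid oxidation genes, 27 sterol and fatty acid synthesis genes, or 23 ryanodine receptor and store calcium genes was called. Their median log2 fold changes were 0.10, −0.18, and −0.02, against 0.02 for all genes tested. Without the replicate that stood apart the medians were −0.02, −0.51, and 0.07, and *INSIG1*, a brake on sterol synthesis, was called lower (edgeR adjusted p = 0.0444). *RYR3* was at 28.8, 23.9, and 30.1 CPM with LPC and at 29.9, 10.6, and 28.6 CPM with LPC + dantrolene, with replicate 2 low (log2 −0.26 ± 0.34, edgeR adjusted p = 0.957). Among 25 proliferation genes none was called and the median was −0.85. Of these, 23 had a log2 fold change below 0, against 48.4% of all genes tested. Outside the list, *POLE*, the leading-strand DNA polymerase, was at 9.12, 5.38, and 10.3 CPM with LPC and at 3.37, 1.06, and 1.5 CPM with LPC + dantrolene (log2 −2.06 ± 0.43, edgeR adjusted p = 0.00386), and the DNA repair gene *FANCD2* and the histone chaperone *ASF1B* were also called lower, *FANCD2* no longer without the replicate that stood apart (edgeR adjusted p = 0.118).

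The second question was which genes raised by LPC were brought back toward vehicle. LPC raised 1129 genes and lowered 19 compared with vehicle, which was 8.54% and 0.144% of the genes tested. Of the 1129, 8 (0.709%) were lower with LPC + dantrolene than LPC and 0 were higher at an adjusted p under 0.05 in edgeR, while 79 and 3 had an unadjusted p under 0.05. DESeq2 gave 6 and 0. The background was 0.288% lower over all genes tested, but the same LPC libraries enter both contrasts with opposite sign, so the count describes these libraries and is not independent evidence of a direction. The fitted change was below 0 for 944 of the 1129 genes (83.6%), with a median of −0.27. In 115 of them (10.2%) all LPC + dantrolene libraries lay below all LPC libraries, and in 0 above, against 4.93% and 4.86% of all genes tested. The genes had been selected for high LPC libraries, which favors this direction.

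That shift of the whole set rested on 1 library. Replicate 2 of LPC + dantrolene lay below the lowest LPC library in 1103 of the 1129 genes, against 190 and 205 in replicates 1 and 3. Without it, the median over the 1129 genes was 0.09 and 414 were below 0. The genes of cohesin, golgins, and membrane trafficking show the pattern. LPC raised 27 of the 29 tested, 0 were called between LPC + dantrolene and LPC, and their median log2 fold change was −0.29 with that library and 0.01 without it. The list holds genes that the paper names from these same data and genes like them. The share raised by LPC therefore follows in part from how the list was drawn. *STAG2*, a cohesin subunit, was at 51.8, 63.7, and 41.1 CPM with LPC, at 44.9, 16.6, and 58.9 CPM with LPC + dantrolene, and at 7.53, 7.07, and 7.5 CPM with vehicle. *PCM1*, a scaffold of centriolar satellites, was at 53.8, 72.2, and 59.5 CPM with LPC and at 79.0, 22.9, and 79.9 CPM with LPC + dantrolene. For both, replicates 1 and 3 stayed in the LPC range or above it.

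The 8 genes called in both contrasts were *NPR3*, *ESM1*, *FAM13C*, *ASPN*, *ANLN*, *MYBL1*, *ITGA1*, and *CPED1*. In each of them every LPC + dantrolene library lay below every LPC library, which also held for other genes among the 115 counted above. Matched by symbol to the RefSeq genes of the Sscrofa11.1 assembly, which the submitters' processing notes name, *NPR3* lies at chr16:18841540-18929813, *ESM1* at chr16:34184255-34193877, *ITGA1* at chr16:32130265-32309917, *FAM13C* at chr14:62622895-62754404, *ASPN* at chr3:42165553-42192902, *ANLN* at chr18:37647952-37710939, *CPED1* at chr18:25655730-25937923, and *MYBL1* at chr4:68120078-68159513.

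*NPR3* was at 31.1, 22.7, and 29.7 CPM with vehicle, at 67.7, 68.4, and 111 CPM with LPC, and at 27.9, 10.9, and 17.0 CPM with LPC + dantrolene. LPC raised it by 1.56 ± 0.35 on the log2 scale (edgeR adjusted p = 0.000688), and LPC + dantrolene against LPC gave −2.14 ± 0.36 (edgeR adjusted p = 0.000145). *ESM1*, a proteoglycan secreted by activated endothelium and induced by hypoxia, was at 11.7, 14.2, and 13.8 CPM with vehicle, at 24.2, 22.3, and 43.6 CPM with LPC, and at 12.2, 3.73, and 5.32 CPM with LPC + dantrolene. The drop was −2.08 ± 0.38 (edgeR adjusted p = 0.000696). In both genes replicate 1 of LPC + dantrolene lay within the vehicle range and the other replicates fell below it.

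*ASPN*, a small leucine-rich proteoglycan that binds TGF-β and collagen, was at 133, 41.2, and 83.2 CPM with vehicle, at 130, 335, and 278 CPM with LPC, and at 94.7, 70.0, and 69.8 CPM with LPC + dantrolene. The change from LPC was −1.66 ± 0.35 (edgeR adjusted p = 0.00418). Replicate 1 of vehicle and of LPC were at nearly the same level. *FAM13C* was at 22.4, 18.9, and 30.4 CPM with vehicle, at 37.8, 50.5, and 84.4 CPM with LPC, and at 28.4, 11.9, and 6.82 CPM with LPC + dantrolene (log2 −1.87 ± 0.37, edgeR adjusted p = 0.00184). *ITGA1*, the α1 chain of a collagen-binding integrin, was at 77.3, 40.9, and 49.2 CPM with vehicle, 84.7, 122, and 129 CPM with LPC, and 57.0, 26.6, and 44.4 CPM with LPC + dantrolene (log2 −1.39 ± 0.33, edgeR adjusted p = 0.0202).

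*ANLN*, the anillin scaffold of the cytokinetic ring, was at 12.1, 13.0, and 12.3 CPM with vehicle, at 47.8, 33.6, and 59.1 CPM with LPC, and at 23.4, 8.88, and 14.3 CPM with LPC + dantrolene (log2 −1.59 ± 0.36, edgeR adjusted p = 0.00987). *MYBL1*, a MYB family transcription factor, was at 16.9, 10.5, and 18.1 CPM with LPC and at 9.21, 1.12, and 4.16 CPM with LPC + dantrolene, against 5.05 ± 0.697 CPM with vehicle (log2 −1.64 ± 0.42, edgeR adjusted p = 0.0384). *CPED1* was at 43.1, 57.9, and 49.9 CPM and at 29.0, 8.95, and 21.3 CPM, against 21.3 ± 6.18 CPM with vehicle (log2 −1.35 ± 0.35, edgeR adjusted p = 0.0450). In these 3 genes, as in *NPR3*, *ESM1*, and *ITGA1*, the replicate that stood apart was the lowest of its group. It was not the lowest in *ASPN* and *FAM13C*. The calls of *MYBL1* and *CPED1* ended without this replicate, and those of the other 6 genes did not. The number of LPC-raised genes called lower was 4, 1, and 3 without LPC replicates 1, 2, and 3, and 28, 8, and 4 without the LPC + dantrolene replicates in the same order. It was 4 without vehicle replicate 1 and 2 without vehicle replicate 2, and *NPR3* was among them in each of these fits.

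Compared with vehicle, LPC + dantrolene left the 8 genes between −0.90 and 0.32 log2 units, and none passed the test, with edgeR adjusted p between 0.170 for *ESM1* and 0.988 for *MYBL1*. Over all genes tested, LPC + dantrolene was called higher than vehicle for 6.23% and lower for 0.9%, and 743 of the 1129 LPC-raised genes were still called higher. The standard errors of these differences were 0.33 to 0.41. Among LPC-raised genes just short of the threshold were the matrix protein *ECM2* (log2 −1.29 ± 0.35, edgeR adjusted p = 0.0654) and *TOP2A*, the topoisomerase of dividing cells, at 24.9, 17.4, and 11.9 CPM with LPC and 8.42, 0, and 4.66 CPM with LPC + dantrolene (log2 −2.04 ± 0.58, edgeR adjusted p = 0.0899). LPC-raised *ANGPTL4*, a lipoprotein lipase inhibitor under PPAR control, did not pass the test, at 123, 124, and 85.7 CPM with LPC and 121, 145, and 115 CPM with LPC + dantrolene (log2 0.20 ± 0.33). The LPC-raised gene with the smallest p among those that were higher was *CYTIP*, a regulator of leukocyte adhesion (log2 1.64 ± 0.50, edgeR adjusted p = 0.140).

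**Figure D4:**
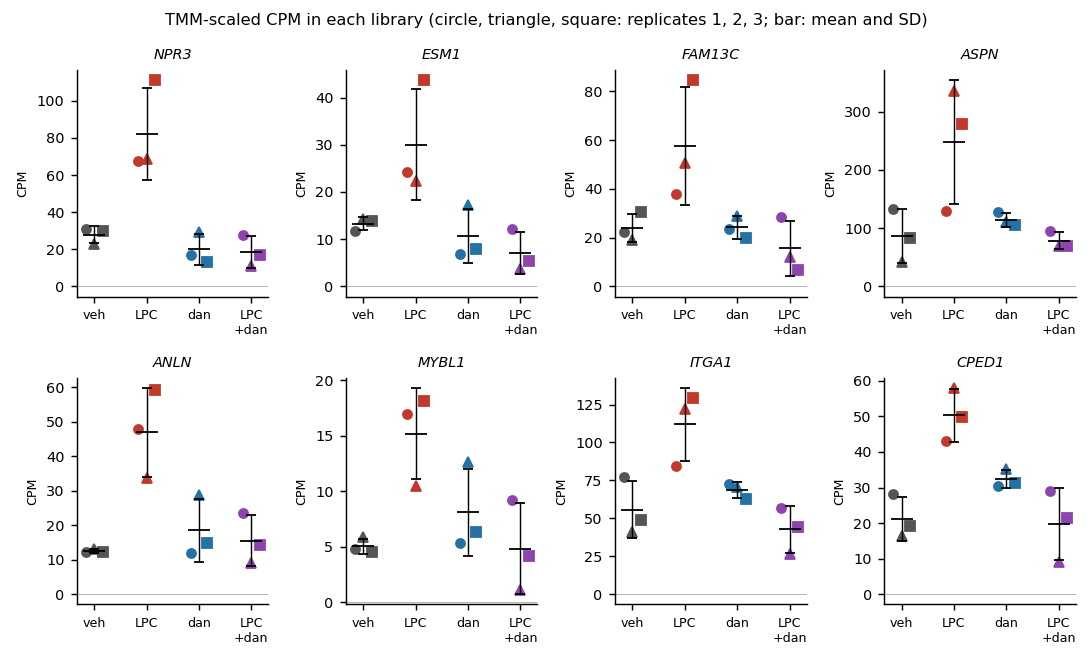
TMM-scaled CPM (y axis, linear) of the 8 genes called higher with LPC than vehicle and lower with LPC + dantrolene than LPC, in vehicle (veh), LPC, dantrolene (dan), and LPC + dantrolene libraries. Circles, triangles, and squares are replicates 1, 2, and 3, and black bars are the mean ± SD (n = 3). Every LPC + dantrolene library lies below every LPC library in all 8 panels.

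Of the 19 genes that LPC lowered, 3 were brought back up, 18 had a fitted change above 0, and the median was 1.98. Over all genes tested 0.219% were called higher, 48.4% had a fitted change below 0, and the median was 0.02. The 19 genes had been selected for low LPC libraries, which favors this direction, so these counts are a description. *TREX1*, an exonuclease that clears cytosolic DNA, was at 3.53, 2.86, and 4.13 CPM with vehicle, at 0.359, 1.03, and 0.154 CPM with LPC, and at 1.95, 4.16, and 4.06 CPM with LPC + dantrolene (log2 2.71 ± 0.61, edgeR adjusted p = 0.00987). In LPC replicate 3 *TREX1* was at the floor of 3 counts, and its call ended without vehicle replicate 1 or without LPC replicate 1, 2, or 3. The other 2 also rested on few counts. *MAL*, a lipid raft proteolipid, had 0, 0, and 3 counts with LPC and 11, 36, and 22 with LPC + dantrolene (edgeR adjusted p = 0.0384). *NCMAP*, a myelin-associated membrane protein, had 0 counts in each LPC library and 0, 36, and 9 with LPC + dantrolene (edgeR adjusted p = 0.0490). Its mean of 0.896 CPM was at least 5.71-fold higher than the floor of 3 counts per library, but replicate 1 was at 0 as in LPC. The calls of *MAL* and *NCMAP* ended without LPC + dantrolene replicate 2 (edgeR adjusted p = 0.137 and 0.441). The count of 3 was 0 without vehicle replicate 1 or LPC replicate 2, 1 without dantrolene replicate 1 or 2, 5 without dantrolene replicate 3, and 7 without vehicle replicate 3.

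Dantrolene against vehicle, which uses none of the 6 libraries of the main comparison, gave 997 genes higher and 166 lower (7.54% and 1.26% of those tested). Of the 29 genes higher with LPC + dantrolene than LPC, 26 were also above 0 for dantrolene against vehicle, 11 were called in that direction and 1 in the other. Of the 38 lower genes, 29 were below 0, 16 were called lower, and 0 were called higher. Without LPC replicate 2 these counts of genes called in both were 3 and 2, and without LPC + dantrolene replicate 2 they were 29 and 59. Over all 13216 genes tested, the log2 fold changes of the 2 comparisons correlated at 0.06 (Pearson) and −0.08 (Spearman). Over the 67 called genes, which had been selected on LPC + dantrolene against LPC, the correlations were 0.45 and 0.63. Other sets of genes were not examined in this way. The isolations and the adjustment of the counts were common to all groups. *CYP1A1* (7.13 ± 0.58), *CYP1B1* (5.72 ± 0.51), *AHRR* (1.55 ± 0.35), *TIPARP* (1.94 ± 0.35), and *GPX3* (1.43 ± 0.35) rose in both, as did *CXCL8* (2.89 ± 0.60). *SLC16A3* (−1.99 ± 0.34), *SLC2A5* (−1.85 ± 0.34), *DHRS3* (−2.35 ± 0.36), *ACTA1* (−2.25 ± 0.41), *TXNIP* (−2.02 ± 0.40), *POLE* (−1.77 ± 0.41), and *APLN* (−1.45 ± 0.35) fell in both, with edgeR adjusted p between 3.10e-06 and 0.00220 without LPC.

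The genes brought back from LPC were not called without it. For dantrolene against vehicle, *NPR3*, *ESM1*, *FAM13C*, *ASPN*, *ANLN*, *MYBL1*, *ITGA1*, and *CPED1* had log2 fold changes between −0.48 and 0.69, and none passed the test (edgeR adjusted p between 0.406 and 0.988). The difference between the effect of dantrolene with and without LPC, tested as an interaction in edgeR, was called for 21 genes above 0 and 593 below 0 (0.159% and 4.49% of those tested). All 8 genes were among the 593. The interaction uses the same LPC and vehicle libraries that defined the LPC-raised genes, so this count too is a description. Of 614 genes in both directions, the count fell to 4 without LPC replicate 2, to 34 without dantrolene replicate 2, to 228 without vehicle replicate 2, and to 267 without LPC replicate 1, and it was 937 without LPC + dantrolene replicate 3.

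**Figure D5:**
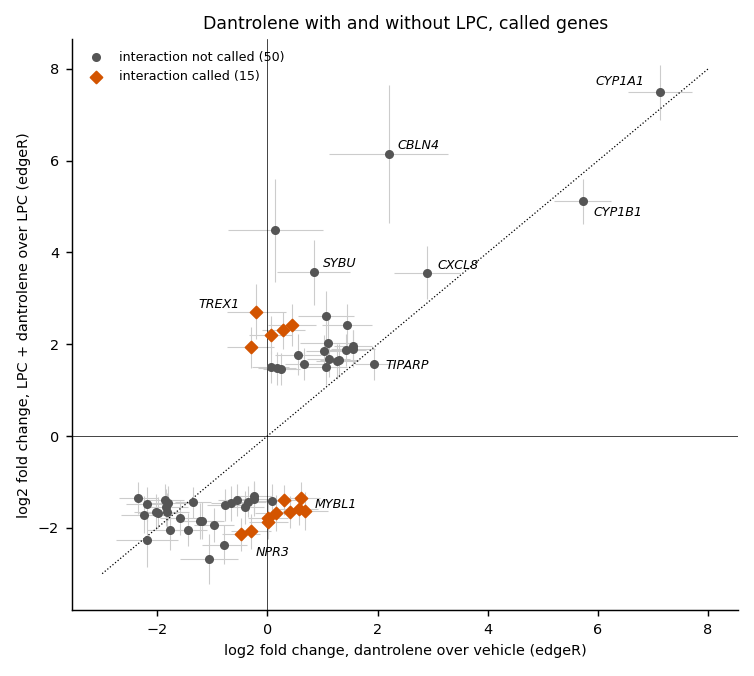
Log2 fold change of dantrolene over vehicle (x axis) and of LPC + dantrolene over LPC (y axis) for 65 of the 67 called genes, leaving out 2 with a group at 0 counts. Points are genes, gray bars are standard errors from edgeR, the dotted line marks equal effects, and orange diamonds are the 15 genes with an interaction at an adjusted p under 0.05. *CYP1A1*, *CYP1B1*, and *TIPARP* lie near the dotted line, and the diamonds among the lower genes lie near 0 on the x axis.

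The calls differed in how far they depended on single libraries. *CYP1A1*, *CYP1B1*, *NPR3*, *APLN*, *HDAC9*, and *ESM1* passed the test with each of the 12 libraries left out in turn. *AHRR*, *MT1X*, *PLEKHA6*, *ASPN*, and *SLC16A3* lost their call only without LPC replicate 2, *GPX3* only without LPC replicate 1, and *SORBS2* and *POLE* only without LPC + dantrolene replicate 3. The other 17 higher and 27 lower genes with a symbol lost it in 2 or more of these fits. Of the 29 higher and 38 lower genes, 10 and 18 remained without LPC replicate 1, 3 and 6 without LPC replicate 2, and 15 and 9 without LPC replicate 3. With LPC + dantrolene replicates 1, 2, and 3 left out in the same way, 26 and 28, 26 and 31, and 14 and 7 remained. Without vehicle replicates 1, 2, or 3, 19 and 19, 22 and 21, and 29 and 36 remained, and without dantrolene replicates 1, 2, or 3, 24 and 28, 24 and 28, and 28 and 37.

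With the isolation as a replicate block, 9 genes were called higher and 10 lower, all of them among the 29 and 38. The higher genes with a symbol were *CYP1A1*, *CYP1B1*, *AHRR*, *GPX3*, *MT1X*, *PLEKHA6*, and *TENM4*, and the lower genes were *NPR3*, *APLN*, *HDAC9*, *ESM1*, *SORBS2*, *FAM13C*, *ASPN*, *PDGFD*, *POLE*, and *SLC16A3*. Of the 8 genes brought back, *NPR3*, *ASPN*, and *FAM13C* were called in both contrasts under the block.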

How the data were processed

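mRNA sequencing libraries of paVICs were made from 12 samples in 4 groups of 3, grouped by their treatment labels. Reads were aligned by the authors to the pig genome, the counts were adjusted for batch with the ComBat function, and whole-number counts per gene, not scaled for depth, were deposited. The paper names STAR as the aligner, the submitters' processing notes name HISAT2 2.0.5, DESeq2 1.32.0, and Sscrofa11.1, and strandedness is not given in the sources used here. The adjustment drew the isolations together and estimated their effects beforehand, which the tests below take no account of, and this can make p-values too low. The deposited tables of the authors' own comparisons, which hold fold changes and p-values, were not used.

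Counts were analyzed in R 4.3.3 with edgeR 4.0.16. Of 31908 genes, 13216 passed filterByExpr. TMM factors scaled the libraries, and 1 quasi-likelihood model of the 4 groups was fitted to all 12, with Benjamini-Hochberg adjustment. The deposited table gave a symbol for 10923 of these genes, the reference list of names gave 572 more, and 1721 stayed without a symbol. Positions were found for 55 of the 58 called genes with a symbol. Script steps were tested on simulated data with known changes.

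Genes named were every called gene with a symbol (with the most detail for the 10 of lowest adjusted p per direction that moved the same way in all pairs), the LPC-raised or LPC-lowered genes also called here, genes the paper names, list members, and the 10 LPC-raised genes with the smallest p in each direction. Not all are printed. Genes, lists, and tests were chosen with earlier results of these data known. The paper describes 3 experiments from separate isolations, with 1 replicate per group in each. Libraries with the same replicate number were taken as 1 isolation, which pairs the samples. Deviations from group means correlated between LPC and LPC + dantrolene libraries of the same isolation at 0.207, 0.0134, and −0.378. Over pairs of libraries from different groups, the median was −0.152 for the same isolation and 0.108 for different isolations. ComBat had already adjusted for the isolations, so these correlations cannot show whether pairing mattered. Alternatives were DESeq2 1.42.0, RLE size factors, total counts alone, other filters, only the groups compared, the replicate block, a looser threshold (adjusted p under 0.1), and leaving out every library in turn. Lists and LPC-raised genes without replicate 2 of LPC + dantrolene were added after the data were seen.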

Additional observations from a re-analysis of the deposited data

Results flagged for a closer look

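For 14 of the called genes with a symbol and counts in every group, the effect of dantrolene differed with and without LPC in the edgeR interaction test, and the log2 differences between the 2 effects are given here. Among the genes brought back from LPC it was −1.66 for *NPR3*, −1.78 for *ESM1*, −1.89 for *FAM13C*, −2.07 for *ASPN*, −2.16 for *ANLN*, −1.69 for *ITGA1*, −2.33 for *MYBL1*, and −1.95 for *CPED1* (edgeR adjusted p between 0.00361 and 0.0294). *PDGFD*, at −1.78, and *CCDC141*, a centrosome and cytoskeleton protein, at −1.82, fell with LPC and had log2 fold changes of 0.01 and 0.15 for dantrolene against vehicle (edgeR adjusted p of the interaction 0.0283 and 0.0333). All 14 genes had first been called on LPC + dantrolene against LPC, which is part of the interaction, so its call was favored. Over all genes tested the interaction count fell from 614 to 4 without LPC replicate 2.

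In the other direction the difference was 1.97 for *TENM4*, 2.14 for *LCN2*, 2.92 for *TREX1*, and 2.23 for *CA12* (edgeR adjusted p between 0.0127 and 0.0448). For LPC against vehicle these 4 genes had log2 fold changes of −0.80 for *TENM4* to −2.76 for *TREX1*, which passed the test for *TREX1* alone, and dantrolene against vehicle left them between −0.30 and 0.45. *NCMAP* also had an interaction (edgeR adjusted p = 0.000311), but it had 0 counts in all LPC and all dantrolene libraries, so no size is given.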

How the results depend on the processing

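Genes called higher and lower with LPC + dantrolene than LPC numbered 29 and 38, and 26 and 27 with RLE size factors, 5 and 2 with total counts alone, 37 and 54 with no filter, 30 and 49 with at least 10 counts in every sample, 27 and 27 with DESeq2, 11 and 5 with only the groups compared, and 45 and 65 at an adjusted p under 0.1. The DESeq2 calls shared 20 of the 29 and 25 of the 38 with edgeR, and *CXCL8*, *LCN2*, *SYBU*, *CBLN4*, *NCMAP*, *TXNIP*, *ACTA1*, *ANKRD1*, *MYOM1*, *MAP3K7CL*, *DHRS3*, *COL11A1*, *CCN3*, *LMCD1*, *TMEM47*, *FANCD2*, and *MYBL1* were not called by it (adjusted p from 0.0545 to 0.592). With each library left out they ranged from 3 to 53 and from 6 to 87. The 8 LPC-raised genes called lower became 1 with total counts alone, 14 with no filter, 14 with at least 10 counts, 5 with only the groups compared, and 20 at an adjusted p under 0.1 (1 to 28 with a library left out). LPC-raised genes called higher numbered 1 with at least 10 counts and 1 at an adjusted p under 0.1 (0 to 5). The 3 LPC-lowered genes called higher became 0 with total counts alone, 7 with no filter, 5 with DESeq2, 1 with only the groups compared, and 8 at an adjusted p under 0.1 (0 to 7). The 614 genes with an interaction became 234 with total counts alone (4 to 937). With the isolation as a replicate block the counts were 9, 10, 3, 0, 0, and 280 in the order given. Of the named genes, these changed sign, with no adjusted p under 0.05 in edgeR: *PCM1* with total counts alone (0.087), and with a library left out *PCM1* (−0.28 to 0.35), *KTN1* (−0.61 to 0.18), *SMC3* (−0.60 to 0.26), *NIPBL* (−0.76 to 0.014), *RYR3* (−0.49 to 0.070), *VPS13C* (−0.47 to 0.23), *ACTA2* (−0.86 to 0.25), and *SEMA3A* (−0.0087 to 2.20). All but *ACTA2* and *SEMA3A* were above 0 without LPC + dantrolene replicate 2. The cause was not tested, beyond the fewer samples that leaving one out gives. Genes with few counts, such as *CBLN4*, *MAL*, and *NCMAP*, are limited by depth.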

Other observations

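Further genes called lower belonged to none of the lists described. *EFEMP1*, a fibulin of elastic tissue, was at 23.5, 44.3, and 36.9 CPM with LPC and at 12.8, 11.7, and 12.5 CPM with LPC + dantrolene (log2 −1.50 ± 0.34, edgeR adjusted p = 0.0134). *C1QTNF3*, a secreted C1q family protein, had a log2 fold change of −1.56 ± 0.36 (edgeR adjusted p = 0.0134). In both, every LPC + dantrolene library lay below every LPC library. *CCN3*, a matricellular protein, was at 604, 581, and 1232 CPM with LPC and at 246, 521, and 111 CPM with LPC + dantrolene (log2 −1.46 ± 0.37, edgeR adjusted p = 0.0427). The arrestin-domain gene *ARRDC4* (log2 −1.40 ± 0.35), the junction protein *TMEM47* (−1.41 ± 0.36), *MAP3K7CL* (−2.68 ± 0.55), and the LIM protein *LMCD1* (−1.55 ± 0.40) also fell, with edgeR adjusted p between 0.00310 and 0.0450. The *LMCD1* groups overlapped, and those of *ARRDC4*, *TMEM47*, *MAP3K7CL*, and *CCN3* did not. The calls of *ARRDC4* and *TMEM47* ended without LPC + dantrolene replicate 2 (edgeR adjusted p = 0.0821 and 0.110).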
